A study of Homo sapiens with 6 samples.

Results

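Messenger RNA of forkhead (FOX), SOX and GATA transcription factor genes was examined in cells of the line PC9ER, from human non-small-cell lung cancer, which the submitters describe as driven by EGFR and gefitinib resistant. Genes were taken by name from the deposited table of coding genes: a symbol of FOX plus a letter and a digit, SOX plus a digit, or GATA plus a digit. FOXO1, FOXO3, FOXO4 and FOXM1 were left out. The rule gave 46 of 15376 rows, of which 32 were FOX, 10 SOX and 4 GATA. One of them, FOXL2NB, is named for its position beside FOXL2 and is not a forkhead gene; it had 2 reads in all, both in gefitinib libraries. Of all human coding genes with such names in GENCODE release 29, 25 are not among these rows and were not analysed here, FOXA2, GATA4 and SOX11 among them. The control group was 3 libraries from cells given the vehicle DMSO for 72 h. The treated group was 3 libraries from cells with the same 72 h of vehicle and 1 µM gefitinib. Gefitinib is an inhibitor of the EGFR kinase. The growth medium held 10% fetal calf serum. The protocol, written once for all samples, lists 72 h of DBZ, a gamma-secretase inhibitor, or of DMSO, then a night without serum and gefitinib over the last 6 h, and no group label used here names DBZ. Whether control cells also lost serum is not stated, so serum and drug cannot be told apart if they did not. The labels name no separate cultures behind the replicates, and p-values therefore measure the spread between libraries, which may be technical.

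Forkhead proteins bind DNA through a winged-helix domain, SOX proteins through an HMG box that bends DNA in the minor groove, and GATA proteins through zinc fingers that read the sequence for which they are named. Many members set cell identity: FOXA1 and GATA6 act in the lung endoderm, SOX9 marks the progenitors of the branching lung tips, and GATA3 is best known from luminal breast epithelium and T cells.

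Coding reads per library ranged from 13674237 to 38581498, and each library had been scaled to a total of 18085800, so that 1 read is worth between 0.469 and 1.32 normalized reads. The first principal component, with 71.4% of the variance, separated the groups. On the second (9.59%) replicate 1 of each group stood apart from replicates 2 and 3. Control replicate 1 was at 38.1, against -12.6 and -28.8 for control replicates 2 and 3. Gefitinib replicate 1 was at 23.3, against -8.86 and -11.1 for gefitinib replicates 2 and 3. All 10 epithelial markers were present, with summed levels from 81719 to 135516 normalized reads. Their sums did not overlap between the groups: control libraries had 96426 or more and gefitinib libraries 85202 or less. Of these markers 6 fell, 1 rose and 3 did not pass the test, and the part of this in the results below was not tested. Of 5 fibroblast markers in the table, 4 had a mean under 1. All 5 summed to between 32.4 and 71.4 in each library, mostly from COL1A1. COL1A1 had 52.3 ± 19.5 in control and 54.3 ± 9.9 with gefitinib (SD, n = 3; limma adjusted p = 0.794). Of 9 blood markers 7 had a mean under 1. The other two changed: the integrin gene ITGAM fell from 46.4 ± 6.8 to 15.1 ± 10.1 (SD, n = 3; limma adjusted p = 0.00768) and CD14 rose from 0.322 ± 0.557 to 7.12 ± 2.3 (limma adjusted p = 0.000893). The lung lineage gene NKX2-1 was not analysed here, and the surfactant gene SFTPC had a mean under 1 normalized read.

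More of these transcription factor genes were lower than higher after gefitinib, and the falls included SOX9 and GATA3, in control libraries the SOX gene and the GATA gene with the highest level per kb of exons. Among members with a mean of 10 normalized reads or more, SOX7, FOXQ1 and GATA3 fell most, to between 6.45-fold and 4.16-fold below control, and SOX30, FOXO6, FOXP1 and FOXP4 rose most, by 4.70-fold to 2.37-fold. Of the 43 members with reads in any library, 10 rose, 14 fell and 19 did not pass a limma adjusted p of 0.05; FOXB1, FOXB2 and SOX5 had no reads at all. Over all 15229 genes tested, 28.3% were called higher and 22.8% lower. The median difference was -0.18 for the 43 members and 0.10 for all genes on the log2(value + 1) scale, on which every difference below is given as gefitinib minus control. That member median is the value of FOXD4, which had 2 reads in control and 4 with gefitinib. For members with a mean of 10 normalized reads or more the median was -0.44, against 0.07 for all genes of that abundance. For 27 of the 43 members no control value lay among the gefitinib values, against 58.0% of all genes. Abundance divided the members: 25 had a mean of 10 normalized reads or more over the 6 libraries, and among these 8 rose, 12 fell and 5 did not pass, where 32.5% of all genes of that abundance rose and 27.1% fell. Control and gefitinib values stood apart in 23 of these 25 genes, where 67.5% of all genes of that abundance did so; the exceptions were GATA2 and FOXJ3. On the recovered reads edgeR tested 25 members and called 8 higher and 14 lower. Of all genes it tested, 30.5% were called higher and 30.8% lower. DESeq2 tested all 43 members and called 8 higher and 13 lower, where 24.2% and 24.5% of all genes were. Bulk RNA does not tell fewer cells of a type from less RNA per cell.

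**Figure D1:**
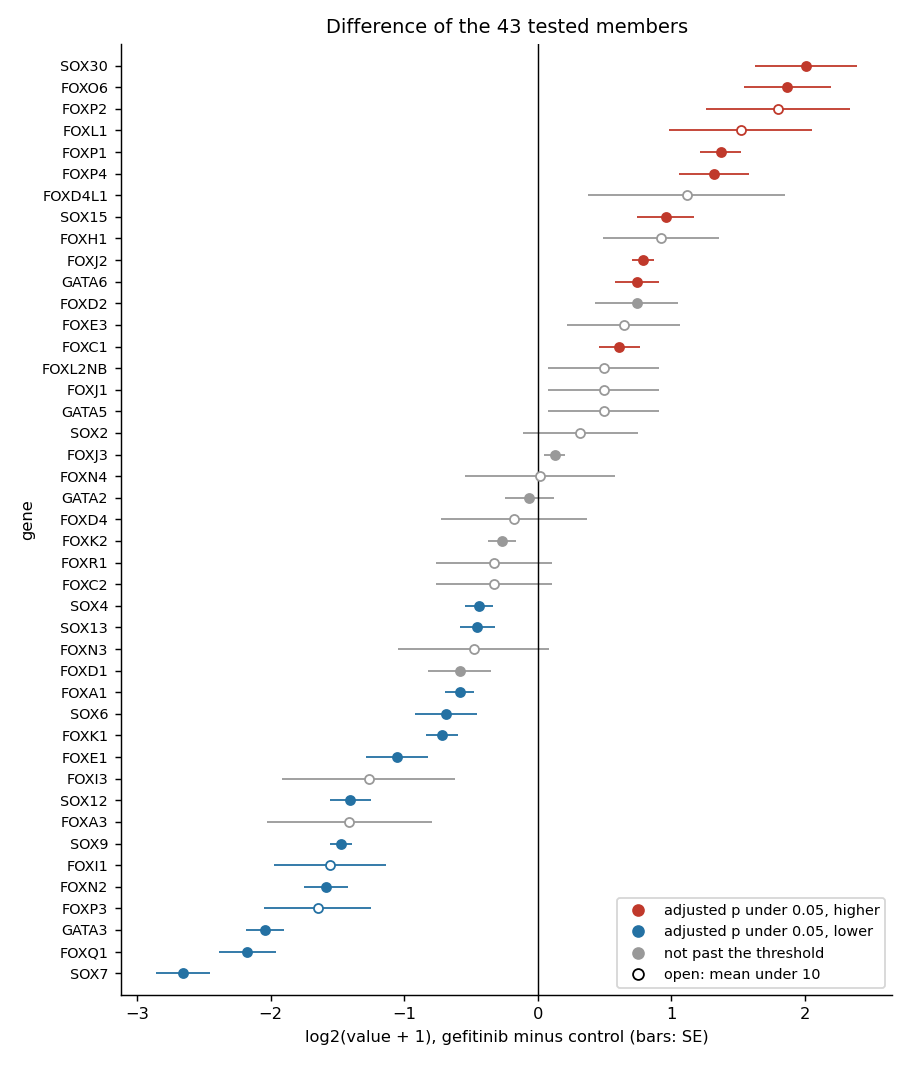
Difference between gefitinib and control on the log2(value + 1) scale, with its SE, for the 43 members that had reads, ordered by size; colour marks the limma call and open symbols a mean under 10 normalized reads. The order runs from SOX7 at -2.66 to SOX30 at 2.01, with 14 members called lower and 10 called higher.

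**Figure D2:**
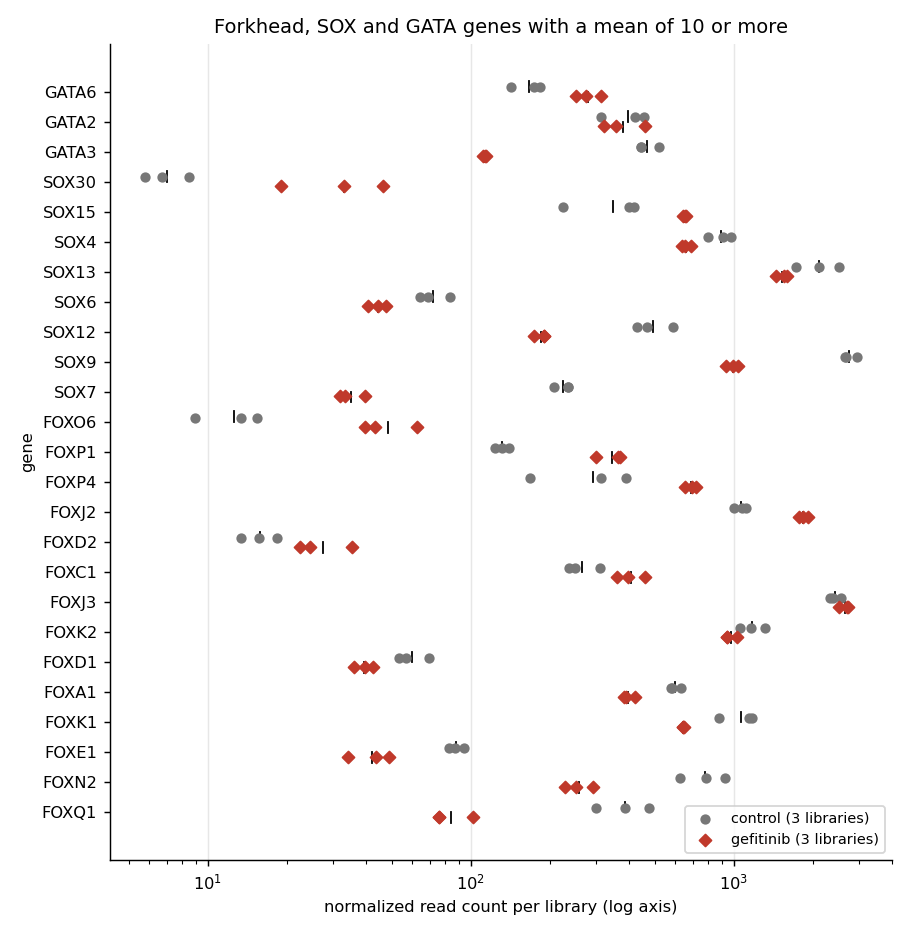
Normalized read count of each library, on a log axis, for the 25 members with a mean of 10 or more, with control libraries as circles, gefitinib libraries as diamonds and group means as black ticks. Only the rows of GATA2 and FOXJ3 show circles and diamonds that overlap in value.

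The GATA genes changed their order. GATA3 (chromosome 10, 8045378 to 8075203, GRCh38) had 444, 445 and 518 normalized reads in the control libraries and 111, 114 and 113 in the gefitinib libraries. Every gefitinib library was far below every control library, and the difference was -2.04 ± 0.14 (SE; limma adjusted p = 5.40e-06). GATA6 (chromosome 18, 22169443 to 22202528), a factor of lung and gut endoderm, had 184, 174 and 143 in control and 274, 252 and 312 with gefitinib. All 3 gefitinib libraries were above the control libraries, by 0.74 ± 0.16 (limma adjusted p = 0.00439). GATA2 (chromosome 3, 128479427 to 128493185), known from blood stem cells and endothelium, had 312, 421 and 456 against 460, 356 and 320. Its groups overlapped and the difference was -0.06 ± 0.19 (limma adjusted p = 0.795). GATA5 had no read in the control libraries, where a count of 0 allows up to 3 of 60586751 reads, and 2 reads in the gefitinib libraries.

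Levels per kb of exons, with all isoforms merged, allow a rough comparison between genes. In control libraries the GATA levels per kb were 137 ± 12.4 (SD, n = 3) for GATA3, 88.9 ± 16.7 for GATA2 and 42.3 ± 5.5 for GATA6. In each control library GATA3 was above GATA2 and GATA2 above GATA6. With gefitinib the levels were 85.0 ± 16.3 for GATA2, 70.8 ± 7.7 for GATA6 and 32.8 ± 0.4 for GATA3. GATA3 was lowest in all 3 gefitinib libraries, while GATA2 and GATA6 lay within their spread of each other and changed places in gefitinib replicate 3. The ratio of GATA6 to GATA3 reads per kb, which does not depend on how libraries are scaled, was 0.361, 0.341 and 0.240 in control and 2.15, 1.93 and 2.40 with gefitinib. This pair was chosen after its values were seen, so no test is given. GATA3 made up 51.0% ± 2.3 (SD, n = 3) of the summed GATA level per kb in control and 17.5% ± 1.5 with gefitinib, and GATA6 16.0% ± 3.3 and 37.6% ± 4.8.

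**Figure D3:**
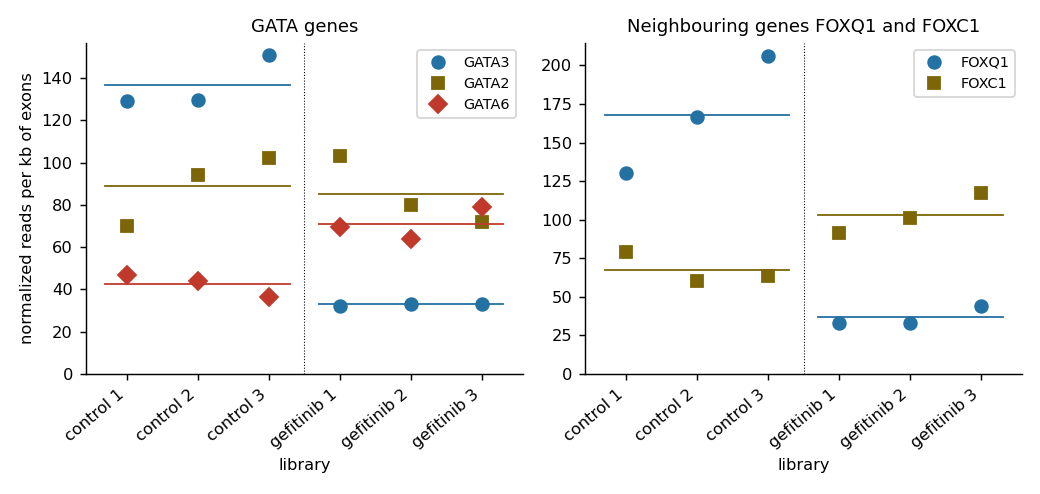
Normalized reads per kb of exons in each of the 6 libraries, with lines at the group means, for the 3 GATA genes with a mean of 10 or more (left) and for the neighbouring genes FOXQ1 and FOXC1 (right); both axes start at 0. GATA3 goes from the highest GATA gene in every control library to the lowest in every gefitinib library, and FOXQ1 from above FOXC1 to below it.

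The forkhead genes FOXQ1 and FOXC1 lie 295 kb apart on chromosome 6 and moved in opposite directions. FOXQ1 (1312440 to 1314748, GRCh38), which encodes a factor linked to epithelial plasticity, had 301, 385 and 476 normalized reads in control and 75.4, 75.9 and 102 with gefitinib. The groups were far apart, with a difference of -2.17 ± 0.21 (SE; limma adjusted p = 3.78e-05). FOXC1 (1609972 to 1613897), a factor of eye, vessel and mesenchyme development, had 309, 237 and 250 in control and 358, 397 and 461 with gefitinib. It was higher in all 3 gefitinib libraries, by 0.61 ± 0.16 (limma adjusted p = 0.00882). Per kb of exons, the ratio of FOXC1 to FOXQ1 was 0.605, 0.361 and 0.309 in control libraries and 2.80, 3.07 and 2.66 with gefitinib; this pair, too, was chosen after its values were seen. Closer pairs of members were FOXC2 and FOXL1, 6.64 kb apart on chromosome 16, and FOXE3 and FOXD2, 18.0 kb apart on chromosome 1. FOXC2 had 1 read in all 6 libraries together and FOXE3 had 4, too few to compare them with their neighbours.

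The promoters of FOXQ1, FOXC1, GATA3 and GATA6, pairs picked with their values in view, are shown. Each window is the 250 bases before the RefSeq start (GRCh38.p14), 5′ to 3′ on the strand of the gene. Capitals mark the CCAAT motif of NF-Y and the GC box GGGCGG of SP factors, on either strand. All 4 lie on the plus strand, FOXQ1 at chr6:1311848-1312097, FOXC1 at chr6:1609665-1609914, GATA3 at chr10:8045083-8045332 and GATA6 at chr18:22169339-22169588.
FOXQ1: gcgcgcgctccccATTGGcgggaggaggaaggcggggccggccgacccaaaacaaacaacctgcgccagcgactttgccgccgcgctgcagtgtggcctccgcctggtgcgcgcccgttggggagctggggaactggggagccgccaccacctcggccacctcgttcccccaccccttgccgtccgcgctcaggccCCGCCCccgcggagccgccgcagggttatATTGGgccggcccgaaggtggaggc
FOXC1: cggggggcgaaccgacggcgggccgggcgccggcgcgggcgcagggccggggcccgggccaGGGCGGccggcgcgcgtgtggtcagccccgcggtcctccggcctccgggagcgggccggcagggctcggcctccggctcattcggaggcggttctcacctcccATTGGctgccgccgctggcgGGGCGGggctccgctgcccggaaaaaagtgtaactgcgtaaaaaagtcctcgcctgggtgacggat
GATA3: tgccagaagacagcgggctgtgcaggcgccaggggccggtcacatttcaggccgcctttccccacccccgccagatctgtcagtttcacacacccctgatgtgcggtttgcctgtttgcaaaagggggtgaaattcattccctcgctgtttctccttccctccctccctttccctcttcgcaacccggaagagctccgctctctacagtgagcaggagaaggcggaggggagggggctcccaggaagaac
GATA6: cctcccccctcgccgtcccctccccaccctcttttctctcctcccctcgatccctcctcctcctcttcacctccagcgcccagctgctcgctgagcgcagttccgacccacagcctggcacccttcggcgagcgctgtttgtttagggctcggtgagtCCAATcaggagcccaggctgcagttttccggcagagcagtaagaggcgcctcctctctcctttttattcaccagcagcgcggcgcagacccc
The FOXQ1 window holds 2 CCAAT motifs and 1 GC box and the FOXC1 window 1 and 2. A part of these motifs in the changes was not tested. Neither motif is in the GATA3 window, and GATA6 has 1 CCAAT motif. The GATA2 window, not shown, holds 1 GC box and no CCAAT motif, with a G and C content of 72.8%. RefSeq and GENCODE starts differ, so the windows are not at like positions. The GATA6 window ends at 22169588, past the GENCODE start at 22169443, and its CCAAT motif lies past that start too. The FOXQ1 window ends at 1312097, before the GENCODE start at 1312440. The G and C content is 74.0% and 76.8% for FOXQ1 and FOXC1, and 60.8% and 64.4% for GATA3 and GATA6. Promoters were found for 33 of the 43 members with reads and for 11509 tested genes, of which 34.6% hold a CCAAT motif and 63.6% a GC box in the same window. Among member promoters 8 of 33 (24.2%) hold CCAAT and 23 (69.7%) a GC box. The AP-1 motif TGANTCA was in 3 of 33 member promoters, against 4.47% of all, and the cyclic AMP motif TGACG in 11 (33.3%), against 27.8%. Of the families' own motifs, forkhead TGTTTAC was in 1 member promoter, that of SOX12, against 1.96% of all. A SOX motif, ACAAAG, was in 2 and a GATA motif, AGATAA, in 1, against 9.43% and 5.26% of all. The median G and C content was 70.6% for the 8 promoters of members that rose and 67.2% for the 11 of members that fell, against 64% for all. A match describes letters in a window and no binding was measured.

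Of 9 SOX genes with reads 6 fell, 2 rose and SOX2 did not pass the test, where 22.8% of all tested genes were called lower and 28.3% higher. SOX9 (chromosome 17, 72121020 to 72126420, GRCh38) had 2941, 2667 and 2654 normalized reads in control and 1037, 997 and 937 with gefitinib. Its gefitinib libraries were all far below control, with a difference of -1.47 ± 0.08 (SE; limma adjusted p = 2.42e-06). SOX7 (chromosome 8, 10723768 to 10730512), a SOXF gene known from endothelium and early endoderm, had 235, 234 and 207 in control and 31.7, 39.8 and 33.3 with gefitinib. That is the largest fall among the members on the log2(value + 1) scale, -2.66 ± 0.20 (SE; limma adjusted p = 8.76e-06). PINX1, which lies on the same strand and overlaps SOX7 in the annotation, had 128 ± 1.35 (SD, n = 3) and 112 ± 13.8 (limma adjusted p = 0.386). Endothelial markers were mixed: the adhesion gene PECAM1 went from 1216 ± 80.4 to 122 ± 10.5, ESAM rose from 147 ± 25.7 to 451 ± 61.6, and CDH5 had 50.5 ± 9.1 and 33.5 ± 5.1 (limma adjusted p = 0.101). The defining endothelial genes TIE1, TEK, FLT1 and EMCN had means under 1 normalized read. The 11 endothelial markers in the table summed to between 1466 and 1706 in control and between 680 and 814 with gefitinib. PECAM1 carried that fall: the other 10 summed to between 239.8 and 418 in control and between 554 and 699 with gefitinib, a split made with the values in view. ESAM held most of that rise and was the only 1 of those 10 to pass the test, while 9 did not pass. EGFL7 had 123 ± 57.4 and 154 ± 12.2 (limma adjusted p = 0.321). The part of these markers in the fall of SOX7 was not tested.

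SOX12 and SOX4, SOXC genes that act in progenitor cells, both fell. SOX12 (chromosome 20, 325595 to 330224) had 430, 466 and 586 in control and 189, 191 and 174 with gefitinib, with no overlap and a difference of -1.40 ± 0.15 (SE; limma adjusted p = 6.22e-05). SOX4 (chromosome 6, 21592768 to 21598619), which is also a known driver of invasion in carcinomas, had 975, 914 and 796 against 653, 633 and 686. The change in SOX4 was small, -0.44 ± 0.11 (limma adjusted p = 0.00677), but no library of one group reached into the other. The SOXD genes lack a transactivation domain and work with partners. SOX13 (chromosome 1, 204073115 to 204127743) had 1730, 2104 and 2516 against 1444, 1553 and 1594, a difference of -0.45 ± 0.13 (limma adjusted p = 0.0157) with a wide spread in control. The SOX13 call was lost without control replicate 2 (adjusted p = 0.0509) or gefitinib replicate 1 (0.0654); all alternatives gave adjusted p between 0.000321 and 0.0654. SOX6 had 64.2, 83.7 and 68.5 against 47.6, 44.3 and 40.8 (-0.69 ± 0.23, limma adjusted p = 0.0323). Leaving out any of 4 libraries (replicates 2 and 3 of either group) ended the SOX6 call, with adjusted p from 0.0585 to 0.127, over a range from 0.0103 to 0.127 in all alternatives. SOX5, the third SOXD gene, had no reads, and SOX2, the squamous lineage factor, had no reads in control and 2 in 1 gefitinib library.

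SOX15 (chromosome 17, 7588178 to 7590170), a SOX gene studied in muscle regeneration and placenta, had 224, 416 and 401 in control and 641, 660 and 650 with gefitinib. The gefitinib libraries were close together and above all controls, by 0.96 ± 0.22 (SE; limma adjusted p = 0.00481). Control replicate 1 was low, and without it the difference was 0.67. The opposite strand carries MPDU1, with 15 shared exon bases of 1541 (0.973%), which fell from 745 ± 38.3 to 582 ± 7.21 (SD, n = 3); the labels do not say whether counting used strand. Among coding genes on opposite strands, exon bases are also held in common by SOX6 and C11orf58 (1.12%), FOXK2 and WDR45B (0.530%) and FOXA1 and TTC6 (0.402%). Reads there cannot be told apart without strand. The same holds for exons overlapped by noncoding opposite-strand genes, 2 at GATA6 and 1 each at FOXP1, FOXP2, SOX4 and FOXD1, among others. Those shared bases were not measured. SOX30, a gene best known from the testis, rose from 8.46, 6.69 and 5.79 to 33.1, 18.98 and 46.4, by 2.01 ± 0.38 (limma adjusted p = 0.00196), and remained a low transcript. Per kb of exons, SOX9 took 45.4% ± 4.9 (SD, n = 3) of the summed SOX level in control and 23.9% ± 1.3 with gefitinib. SOX15 went from 14.5% ± 3.9 to 40.01% ± 0.35 and SOX7 from 4.55% ± 0.50 to 1.03% ± 0.12. The shares of SOX13 (18.4% ± 2.6 and 19.5% ± 0.9) and SOX4 (9.94% ± 1.45 and 10.7% ± 0.4) lay within their spread. The sum itself was between 1464 and 1605 normalized reads per kb in control and between 1049 and 1060 with gefitinib. SOX9 was the highest of all 46 members per kb in control, at 700 ± 41.2, and SOX15 the highest with gefitinib, at 422 ± 5.9. These ranks and shares depend on exon lengths with all isoforms merged, 1541 bases for SOX15 and 6893 for FOXJ3. FOXJ3 came next with gefitinib, at 383 ± 16.1, and its order with SOX15 could differ with other lengths.

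**Figure D4:**
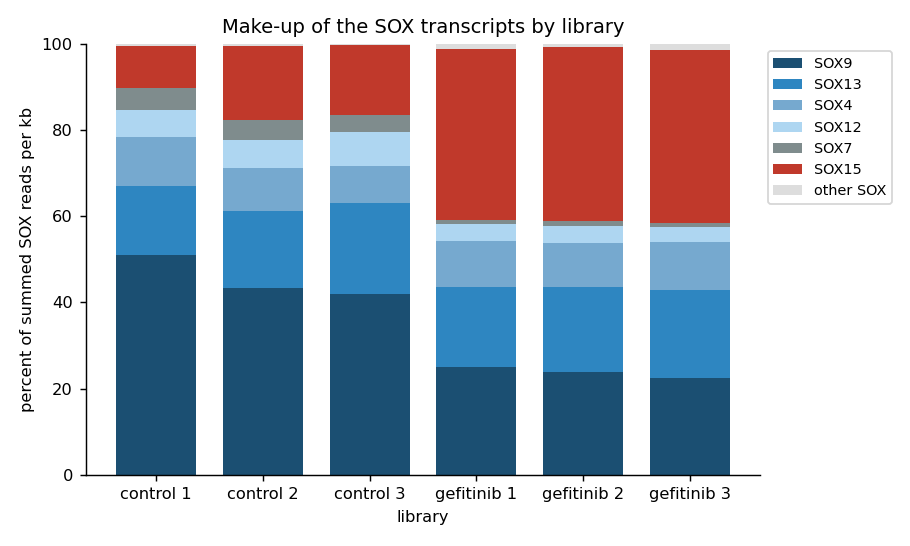
Stacked bars give, for each of the 6 libraries, the percent of the summed SOX level (normalized reads per kb of exons) held by each SOX gene. SOX9 is the widest segment in every control library, at 42.0% or more, and SOX15 in every gefitinib library, at 39.7% or more.

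Like FOXQ1, the forkhead genes FOXA1 and FOXE1 fell. FOXA1 (chromosome 14, 37589984 to 37596059, GRCh38), the pioneer factor that opens chromatin in endoderm and hormone-responsive epithelia, had 585, 576 and 630 normalized reads in control and 389, 381 and 422 with gefitinib. The groups were well apart, but the change was modest, -0.59 ± 0.11 (SE; limma adjusted p = 0.00149). FOXE1, the thyroid factor (chromosome 9, 97853254 to 97856715), had 82.5, 87.0 and 94.6 against 43.6, 48.8 and 34.2, a difference of -1.06 ± 0.23 (limma adjusted p = 0.00445). FOXD1 and FOXD2 were counted among the members that did not pass the test, although neither had overlapping groups. FOXD1 had means of 59.9 in control and 39.4 with gefitinib (limma adjusted p = 0.0673) and FOXD2 means of 15.8 and 27.4 (limma adjusted p = 0.0735). FOXD1 was called lower at a mean of 10 or more, by limma-voom and by edgeR with and without its count filter, and FOXD2 was called higher with a pseudocount of 5. Both were picked for mention with their values in view.

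Of the J, K and N forkhead genes, FOXJ2 rose, FOXK1 and FOXN2 fell, and FOXJ3 and FOXK2 did not pass the test; differences between relatives were not tested. FOXJ2 (chromosome 12, 8032703 to 8055503), a transcriptional activator, had 1079, 1000 and 1111 in control and 1764, 1909 and 1833 with gefitinib. It rose evenly in all 3 libraries, by 0.79 ± 0.08 (SE; limma adjusted p = 5.98e-05). FOXJ3, its close relative and the forkhead gene with the highest level per kb in both groups, had 2568, 2377 and 2315 against 2710, 2702 and 2514, with overlap between the groups (0.13 ± 0.08, limma adjusted p = 0.209). Without control replicate 1 the FOXJ3 adjusted p was 0.0460, over a range from 0.0460 to 0.739 in all alternatives. FOXJ1, the master regulator of motile cilia, had no read in control and 2 reads with gefitinib. FOXK1 (chromosome 7, 4682309 to 4771443), a repressor of autophagy and atrophy genes, had 878, 1142 and 1176 against 647, 639 and 641, with a narrow gefitinib group and a difference of -0.72 ± 0.12 (limma adjusted p = 0.00100). FOXK2, which shares many targets with FOXK1, had 1057, 1159 and 1311 against 1032, 943 and 946. The FOXK2 groups did not overlap and the difference was -0.27 ± 0.10 (limma adjusted p = 0.0553). FOXK2 passed in 7 of 15 alternatives, among them TMM factors (adjusted p = 0.0202), edgeR (0.0175), DESeq2 (0.0173) and without control replicate 1 (0.00722), over a range from 0.00722 to 0.182. FOXN2 (chromosome 2, 48314637 to 48379294) had 930, 784 and 626 in control and 291, 252 and 228 with gefitinib. No library of one group reached the other, and the difference was -1.59 ± 0.16 (limma adjusted p = 5.15e-05). FOXN3, a checkpoint-linked repressor and a relative of FOXN2, had 7 reads in all control and 3 in all gefitinib libraries.

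FOXP1 and FOXP4, repressors that form dimers with other FOXP proteins and act in airway development, both rose. FOXP1 (chromosome 3, 70952817 to 71583993) had 131, 124 and 140 in control and 299, 361 and 369 with gefitinib. All 3 gefitinib libraries were above all controls, by 1.37 ± 0.15 (SE; limma adjusted p = 7.93e-05). FOXP4 (chromosome 6, 41546426 to 41602384) had 169, 313 and 390 against 651, 694 and 719, a rise of 1.32 ± 0.26 (limma adjusted p = 0.00238). Control replicate 1 was again the lowest, and without it the FOXP4 difference was 0.97. Its library ratio to FOXK1, per kb of exons, was 0.407, 0.582 and 0.704 in control and 2.14, 2.31 and 2.38 with gefitinib, a pair picked after its values were seen. FOXP2 and FOXP3 were at the limit of detection and are given with the rare transcripts. FOXO6 (chromosome 1, 41361922 to 41383590), a FOXO relative that stays nuclear more than the others do, had 13.4, 8.92 and 15.4 in control and 39.7, 43.4 and 62.3 with gefitinib. It was a low transcript in both groups, and its rise of 1.87 ± 0.33 (limma adjusted p = 0.00112) was higher in 3 of 3 libraries. Summed over all FOX rows, the level per kb was between 1335 and 1411 in control and between 1271 and 1298 with gefitinib. Within that sum FOXJ2 went from 12.4% ± 0.5 (SD, n = 3) to 22.6% ± 0.7 and FOXP4 from 3.44% ± 1.26 to 8.65% ± 0.34. FOXQ1 went from 12.3% ± 2.4 to 2.83% ± 0.49 and FOXN2 from 10.5% ± 2.3 to 3.64% ± 0.49.

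The other 21 members had means under 10 normalized reads: 2 were called higher, 2 lower, 14 did not pass and 3 had no reads. FOXP2 had 1 read in all control and 12 in all gefitinib libraries, 10.1 times as many after correction for depth, with an exact 95% counting interval of 1.49 to 430, and FOXL1 had 1 and 16 reads, a ratio of 13.4 (2.08 to 563). Of the 16 FOXL1 reads 13 were in gefitinib replicate 3, and without it the ratio was 5.40. The ratio was 7.74 without control replicate 1. Control replicate 3 held the only control read, and without it FOXL1 was 3.09-fold higher when set against 3 reads over the group. Such a fold against 3 reads takes the other count as exact and is not a lower limit. For FOXP2 6 of the 12 reads were in gefitinib replicate 1, and without it the ratio was 6.20. Without control replicate 1, which held the only control read, FOXP2 was 1.93-fold higher when set against 3 reads. FOXP3, the factor of regulatory T cells, had 7 reads in control and 0 with gefitinib. Set against 3 reads over the group, FOXP3 was 2.78-fold lower, and 1.30-fold lower without gefitinib replicate 3, the deepest library. FOXI1, an ionocyte factor, had 11 reads in control and 2 with gefitinib, a ratio of 6.56 (1.43 to 60.9) for control over gefitinib. These intervals cover counting error only. The limma adjusted p was 0.0196 for FOXP2, 0.0387 for FOXL1, 0.00719 for FOXP3 and 0.0116 for FOXI1. None of these 4 calls was made by DESeq2, with adjusted p of 0.111, 0.165, 0.135 and 0.177, and edgeR's count filter removed all 4 genes. Over the alternatives that tested them, adjusted p ranged from 0.0130 to 0.111, from 0.0212 to 0.165, from 0.00544 to 0.135 and from 0.0108 to 0.177. Without control replicate 2 both FOXP2 (adjusted p = 0.0638) and FOXL1 (0.115) lost their calls. FOXP2 lost it also without control replicate 3 (0.0523) and by edgeR with no count filter (0.0648). FOXL1 lost it also with a pseudocount of 5 (0.0671) and when control replicate 1 (0.0919), gefitinib replicate 2 (0.0589) or gefitinib replicate 3 (0.164) was left out. FOXP3 shares 91 exon bases (3.44% of its exons) with CCDC22 on the opposite strand, and FOXH1, which did not pass, shares 31.6% with KIFC2, so their few reads are of uncertain origin. FOXD4 and FOXD4L1 belong to a set of near-identical copies, and their 6 and 9 reads cannot be assigned with certainty. Leaving out 1 library gave calls for FOXA3 (control replicate 1), FOXI3 (control replicate 3) and FOXH1 (gefitinib replicate 1). Of all 21, 11 had means under 1 normalized read.

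Genes that work with these factors were read from lists drawn up by role, for which the background is again 28.3% of all genes called higher and 22.8% called lower. Of 7 GATA cofactors tested, 3 rose, none fell at this threshold and 4 did not pass. LMO4, a LIM-only adaptor, rose from 829 ± 104 to 3197 ± 403 (SD, n = 3), by 1.95 ± 0.12 (SE; limma adjusted p = 3.41e-06). LMO2, the blood and vessel adaptor, had 1 read in control and 61 with gefitinib, 51.1 times as many after correction for depth (counting interval 8.84 to 2053), and 29.5 times without control replicate 1 or 34.2 times without gefitinib replicate 3. Without control replicate 3, which held the only control read, LMO2 was 11.8-fold higher against 3 reads over the group, its reads taken as exact. LDB1, which bridges LIM-only proteins to GATA factors, rose from 391 ± 101 to 562 ± 78.9 (limma adjusted p = 0.0475). The list's median difference was 0.24, against 0.10 for all genes. The TCF and LEF genes, HMG-box relatives of SOX that carry WNT signals, had 3 falls among 4 genes, with a list median of -0.80. LEF1 did not pass, with 29.6 ± 10.1 in control and 40.8 ± 7.9 with gefitinib (limma adjusted p = 0.253). TCF7 fell from 1170 ± 113 to 621 ± 75.7, TCF7L2 from 474 ± 25.1 to 295 ± 30.9 and TCF7L1 from 35.8 ± 13.3 to 5.24 ± 3.82. Of 5 POU and PAX partners of SOX factors, 3 rose and 2 fell, with a median of 0.24. PAX6 rose from 528 ± 71.5 to 961 ± 48.1 and PAX8 fell from 204 ± 35.5 to 90.9 ± 15.5. POU3F1 had no read in control and 24 with gefitinib. With its reads taken as exact, POU3F1 was 6.71-fold higher against 3 reads over the group, or 3.87-fold without control replicate 1.

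Lists of lung, cilium, cartilage and hedgehog genes linked to these factors, not all of them targets, were not uniform. Their counts stand beside the 28.3% of all tested genes called higher and 22.8% called lower. The shares called higher in the lung and cilium lists were near that background. Of 13 lung epithelial lineage genes, 4 rose and 9 did not pass, with a median of 0.64. LPCAT1, a surfactant lipid enzyme, rose from 2178 ± 163 to 4734 ± 374 (SD, n = 3), LAMP3 from 71.6 ± 16.0 to 151 ± 22.8 and ABCA3, the lamellar body transporter, from 61.1 ± 11.1 to 117 ± 33.6. The surfactant protein genes SFTPB, SFTPC and SFTPD, picked with their values in view, had control means of 7.82, 0.235 and 2.23 and did not pass. Of 16 motile cilium genes, 5 rose, 1 fell and 10 did not pass, with a median of 0.77. MYB rose from 30.8 ± 8.8 to 184 ± 27.6, RFX3 from 203 ± 21.2 to 449 ± 14.8 and PIFO from 3.73 ± 1.07 to 18.6 ± 1.8, while FOXJ1 itself had the 2 reads given above. Of 5 cartilage genes governed by SOX9, 1 rose, 1 fell and 3 did not pass. Their median of -0.36 is the value of COL11A1, which had 1 read in all libraries together, and gives no direction. Collagen genes of this list moved apart: COL11A2 rose from 12.2 ± 2.3 to 218 ± 76.7 and COL9A2 fell from 62.0 ± 14.3 to 21.6 ± 6.7, with COL9A3 at 3.30 ± 1.97 and 5.59 ± 1.05 (limma adjusted p = 0.217). Of 9 hedgehog pathway genes, which act upstream of several FOX genes, 3 rose, 1 fell and 5 did not pass. Their median of 0.41 is the value of GLI2, which likewise had 1 read in all libraries together. SUFU, a pathway inhibitor, rose from 516 ± 65.4 to 858 ± 10.7. IHH, a ligand gene, had no read in control and 14 with gefitinib. With its reads taken as exact, IHH was 3.91-fold higher against 3 reads over the group, or 2.26-fold without control replicate 1.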

How the data were processed

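The authors deposited a never-negative signal for coding genes, gene read counts scaled to 18085800 per library; STAR, HTSeq and GRCh38 are named in the submitters' processing notes, and versions, annotation and use of strand are not given in the sources used here. Whole reads were recovered from the steps of each column: 100% of values above 0 were whole within 0.01 read. Another table's 6 per-sample columns match no label and were not used. Samples were grouped by title. The test was limma 3.58.1 with an intensity trend, in R 4.3.3, applied to log2(value + 1), which understates changes of low genes, 2-sided, with Benjamini-Hochberg adjustment over 15229 genes that were not 0 throughout. It was tested on simulated data. edgeR 4.0.16 and DESeq2 1.42.0 were run on recovered reads. Levels per kb use GENCODE release 29 exon lengths, all isoforms merged, which makes long genes such as FOXP1 look low; positions are from GENCODE and promoters from RefSeq. Members, lists and tests were chosen with earlier results of these data known. Named are all members past the threshold, others with a mean of 100 or more, and up to 3 genes per list with the smallest p, of which 1 is not reported here. No libraries of a group agreed within counting noise.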

Additional observations from a re-analysis of the deposited data

How the results depend on the processing

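The 15 alternatives were pseudocounts of 0.5 and 5, a mean of 10 or more, TMM factors, edgeR, DESeq2, limma-voom, the replicate block, each of the 6 libraries left out and, added after the data were seen, edgeR without its count filter. Of the 24 members called, 18 stayed on the same side of the threshold with the same direction in every alternative that tested them; the exceptions were FOXP2, FOXP3, FOXI1, FOXL1, SOX6 and SOX13. Members called higher numbered from 8 to 11 and lower from 12 to 16 over all alternatives, without a library from 8 to 11 and from 12 to 16. GATA2, not called, changed sign to 0.0462 without control replicate 3 and 0.0491 without gefitinib replicate 3, in a range from -0.225 to 0.0491 with 1 library left out. Deviations from the group means had correlations of 0.127, 0.0444 and 0.0947 between same-numbered libraries of the groups. Between differently numbered libraries the correlations ran from -0.128 to 0.0862. The labels do not say whether replicate numbers pair the libraries, and these small values do not settle it. With the replicate block 10 members were higher and 14 lower, as without it, the same 24 were called, and 7990 of all genes were called, against 7785. Depth limits the 21 members with means under 10.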
